A study of Homo sapiens with 12 samples.

Results

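The insulin-like growth factor (IGF) axis was followed through 10 of its genes in U2OS, an established osteosarcoma cell line whose p53 is wild type. The genes were the 7 IGF-binding protein genes IGFBP1 to IGFBP7, the receptor genes IGF1R and IGF2R, and IRS1, which encodes an adaptor of the receptor. The members are defined by name rather than by a measured level or response, and were found through the platform's probe annotation wherever a probe set, a group of short probes that reads 1 transcript region, was paired with 1 gene. All 10 genes of 19775 in the table were found, with 27 probe sets of 41091.

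Each of the 4 groups held 3 arrays, and every culture carried the cell line's own p53 and was sampled after 24 hours. Untreated cells were the control for 0.6 µg/ml doxorubicin, a DNA-intercalating topoisomerase II poison that damages DNA. Cells in 0.1% DMSO, the solvent, were the control for 10 µM nutlin-3, which keeps MDM2 off p53 and so stabilises p53 without direct DNA damage. The labels do not say whether the 3 arrays of a group came from separate cultures, so the spread behind the p-values may be technical only. U2OS is 1 line, and the labels do not say whether the doxorubicin and nutlin-3 arms were grown or hybridised together.

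IGF ligands bind IGF1R, a receptor tyrosine kinase at the cell surface, and the active receptor phosphorylates IRS1, which recruits PI3-kinase and passes the signal to AKT. Binding proteins hold the ligands outside the cell and either block or prolong their action, and proteases such as PAPP-A set the ligands free by cutting the binding proteins. The axis drives growth of bone cells, which store IGFs with IGFBP5 in their matrix, and it is tied to p53 because IGFBP3 is a textbook p53 target and wild-type p53 has been reported to repress the IGF1R promoter.

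The start regions of 3 members on which the results turn are shown from the RefSeq promoter table (GRCh38.p14), which gives 250 bases before to 50 bases after a gene's start, read 5′ to 3′ on the gene's own strand. IGF1R (chr15:98648289-98648588, plus strand) and IRS1 (chr2:226799771-226800070, minus strand) are shown because both were called with both agents, and IGFBP5 (chr2:216695500-216695799, minus strand) because its level differed most between the 2 control groups. Capitals mark the GC box (GGGCGG) or the E-box (CACGTG), searched on both strands.
IGF1R: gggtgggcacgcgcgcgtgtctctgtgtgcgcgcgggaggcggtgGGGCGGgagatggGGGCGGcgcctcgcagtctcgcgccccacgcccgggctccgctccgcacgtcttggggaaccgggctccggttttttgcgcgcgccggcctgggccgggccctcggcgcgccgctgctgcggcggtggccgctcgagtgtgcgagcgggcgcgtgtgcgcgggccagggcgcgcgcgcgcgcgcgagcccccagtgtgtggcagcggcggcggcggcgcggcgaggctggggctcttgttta
IRS1: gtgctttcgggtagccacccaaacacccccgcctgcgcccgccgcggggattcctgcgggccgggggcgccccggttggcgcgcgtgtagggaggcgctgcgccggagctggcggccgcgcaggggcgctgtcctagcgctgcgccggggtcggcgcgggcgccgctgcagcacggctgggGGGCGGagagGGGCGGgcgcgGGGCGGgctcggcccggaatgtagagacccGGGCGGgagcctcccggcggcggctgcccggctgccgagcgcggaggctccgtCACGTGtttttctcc
IGFBP5: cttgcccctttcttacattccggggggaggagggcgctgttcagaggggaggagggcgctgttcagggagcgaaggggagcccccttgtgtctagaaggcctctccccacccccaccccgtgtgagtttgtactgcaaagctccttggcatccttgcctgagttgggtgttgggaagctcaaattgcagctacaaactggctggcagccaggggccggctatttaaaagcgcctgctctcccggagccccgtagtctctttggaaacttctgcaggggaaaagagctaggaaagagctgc
The IGF1R window held 2 GC boxes, and the IRS1 window held 4 GC boxes and 1 E-box. Of 35116 promoters of the same length in the table, 45% held a GC box and 7.26% an E-box. The IGFBP5 window held neither, nor a TATA box written as TATAAA (11.5% of promoters), a FOXO site written as TGTTTAC (3.42%) or a p53 half-site (6.63%), and no match says only that these letters are not in the window. The IGF1R and IRS1 windows held 79.7% and 79.3% G and C, IGFBP5 held 59.0%, and the median of all promoters was 58.7%. Entries for 8 of the 10 genes were matched.

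Signals are MAS5 values, linear intensities that the authors scaled to 1 common mean per array. They were tested on the log2(signal + 16) scale with limma, in 1 fit of all 12 arrays, and a probe set is said to rise or fall where its Benjamini-Hochberg adjusted p over all 32768 probe sets tested was under 0.05. Probe sets with a mean signal under 54.6, the 40th percentile, were not tested. Of the 27 probe sets, 20 were tested, and they came from 6 genes: IGFBP5 (6 of 6), IGFBP6 (1 of 1), IGFBP7 (3 of 3), IGF1R (4 of 5), IGF2R (3 of 3) and IRS1 (3 of 3). The 2 probe sets of IGFBP1, 1 of IGFBP2, 2 of IGFBP3, 1 of IGFBP4 and 1 of IGF1R lay under the filter. Folds in the text are taken back from the log2(signal + 16) scale, so they understate the change of dim probe sets, and levels are never compared between probe sets.

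**Figure D1:**
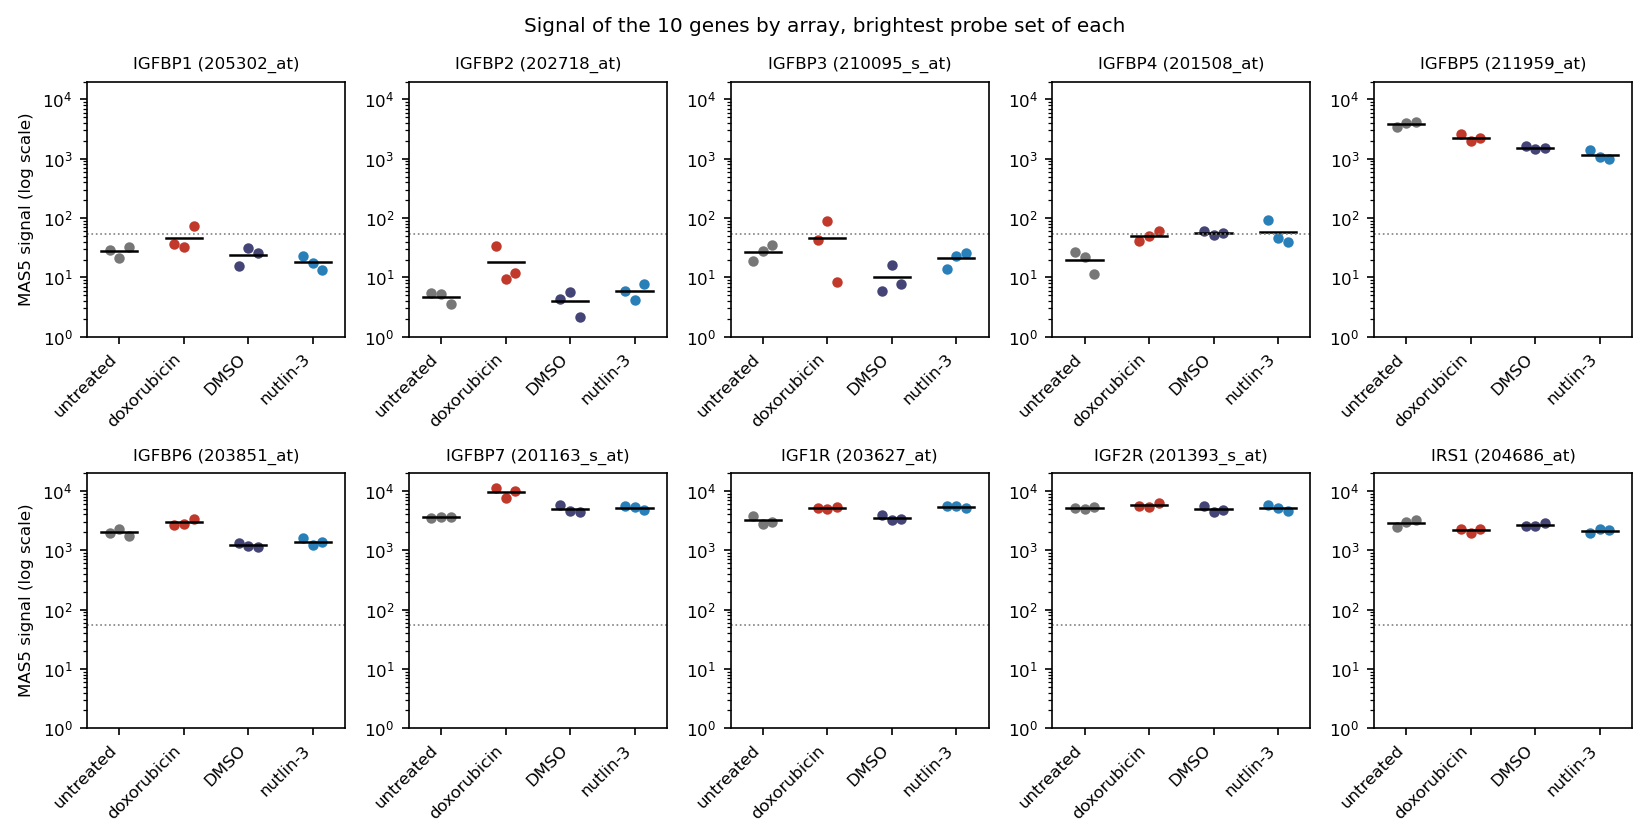
MAS5 signal (log scale) of the brightest probe set of each of the 10 genes on the 12 arrays, with 1 point per array, a line at each group's mean and a dotted line at the filter of 54.6. IGFBP7 is highest on the doxorubicin arrays, IGFBP5 is highest on the untreated arrays, and IGFBP1 to IGFBP4 have group means near or under the filter.

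Some measures of the arrays as a whole differed between doxorubicin and untreated cells. The ratio of 3′ to 5′ signal of the beta-actin control probe sets, a sign of RNA integrity and amplification, was 2.48, 3.29 and 3.59 on the doxorubicin arrays against a mean of 1.53 ± 0.0754 (SD, n = 3) in untreated cells (exact permutation test, 2-sided p = 0.1, the smallest that 3 against 3 arrays allow), while nutlin-3 had 1.31 ± 0.0260 and DMSO 1.28 ± 0.0281 (SD, n = 3 each). The same ratio for GAPDH was 1.02, 1.21 and 0.993 with doxorubicin and 1.01, 0.980 and 1.05 in untreated cells, which overlapped (exact permutation test, 2-sided p = 0.6). Of the osteoblast and mesenchymal markers, 5 of 8 measured passed the filter, among them RUNX2, COL1A1 and SPARC, while SP7, ALPL and COL1A2 did not. Leukocyte markers (2 of 4 over the filter, with PTPRC and CD14 under it) summed to 155 to 246 in untreated cells, 509 to 796 with doxorubicin, 126 to 191 in DMSO and 319 to 421 with nutlin-3. LAPTM5 alone carried most of that rise, with means of 85.1, 509, 60.8 and 258 in the same order, while CD3E had 54.4, 83.7, 48.6 and 57.9, and PTPRC had 42.8 in DMSO and 34.2 with nutlin-3. Epithelial markers (3 of 5 over the filter) summed to 2067 to 2252, 1420 to 1739, 1087 to 1286 and 787 to 897 in the same order, and endothelial markers (1 of 4) to 238 to 284, 275 to 330, 132 to 180 and 163 to 210. No measured marker was listed at 0. The part of these measures in the changes below was not tested. Fits in which doxorubicin array 1, the one with the lowest beta-actin ratio, stood alone for its group are given as alternatives: their p-values assume that the lone array varies like the other groups, and its ratio of 2.48 still lay above every untreated array.

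Doxorubicin changed 10 of the 20 tested probe sets of the axis, of which 5 rose and 5 fell, beside 47.4% of all probe sets called in this comparison (23.7% higher and 23.7% lower). The share of members called was therefore close to the background. In such bulk RNA, a change in the number of cells that carry a transcript and a change in its amount per cell cannot be told apart. The median log2 change of the 20 probe sets was -0.14, beside 0.04 over all probe sets tested. Nutlin-3 changed 6 of the 20, of which 3 rose and 3 fell, beside 17.9% of all probe sets (8.4% higher and 9.54% lower), and the median was -0.03 beside -0.005 over all probe sets. A change of at least 2-fold as well was met by 3 of the 20 with doxorubicin, beside 15.2% of all probe sets, and by 0 with nutlin-3 in the limma fit, beside 3.66%. Against the other control the splits were different: doxorubicin against DMSO gave 11 higher and 2 lower, and nutlin-3 against untreated cells gave 3 higher and 11 lower. No share over all probe sets was recorded for these comparisons, so whether the splits are particular to the members cannot be told. With array 1 alone for doxorubicin, 10 of the 20 were called, 4 higher and 6 lower, and these were not all the same probe sets. Leaving out 1 array at a time gave 10 to 12 calls with doxorubicin and 2 to 7 with nutlin-3. Of the nutlin-3 calls, 2 were left without DMSO array 2 or DMSO array 3, and 3 without nutlin-3 array 2. There were 4 without DMSO array 1, nutlin-3 array 1 or nutlin-3 array 3. For the fits with array 1 alone or with 1 array left out, no share over all probe sets was recorded.

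**Figure D2:**
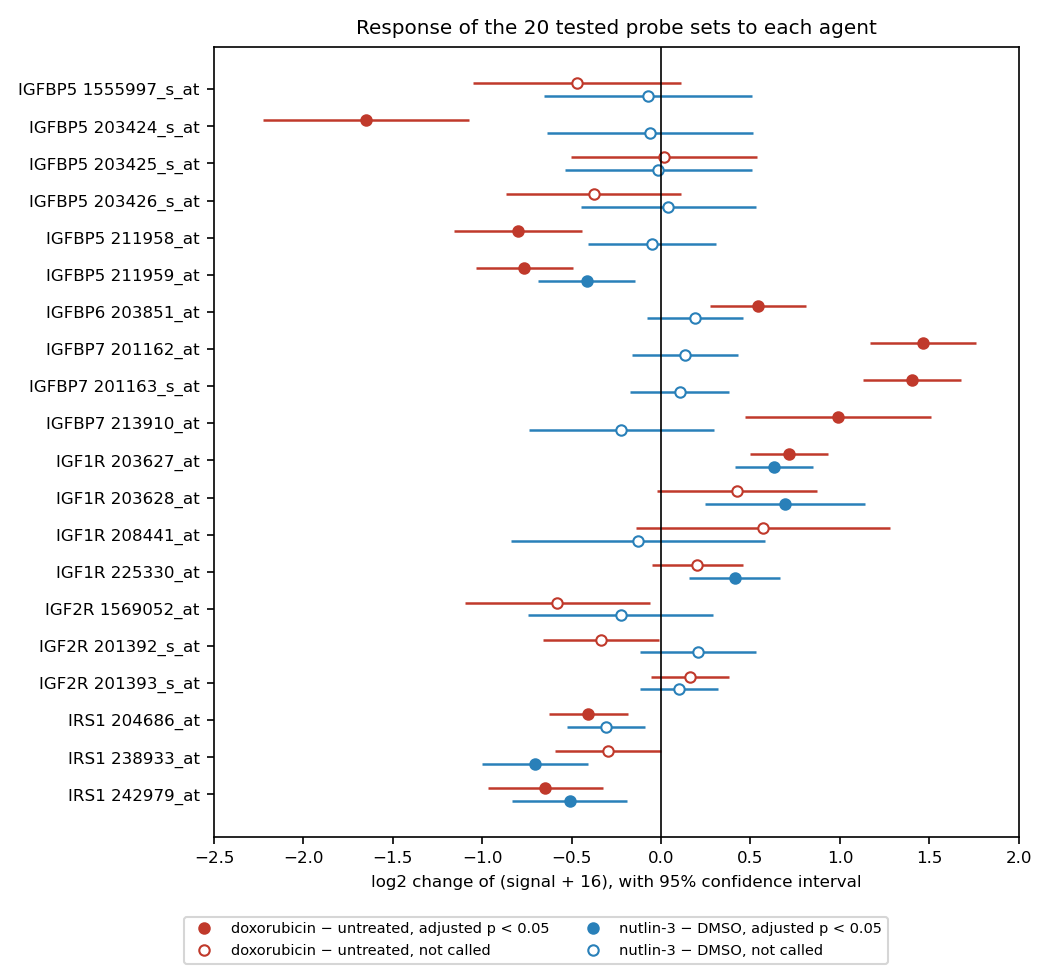
Log2 change of each of the 20 tested probe sets with doxorubicin against untreated cells (red) and with nutlin-3 against DMSO (blue), with 95% confidence intervals from the limma fit; filled points passed an adjusted p of 0.05. The doxorubicin points of the 3 IGFBP7 probe sets are filled and stand to the right of 0 while their nutlin-3 points are open, IGF1R 203627_at stands to the right with both agents, and the IRS1 probe sets stand to the left with both.

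IGFBP7 rose with doxorubicin in all 3 of its probe sets, by 2.76-fold, 2.64-fold and 1.99-fold, and none of the 3 was called with nutlin-3. IGFBP7 encodes a secreted protein that binds IGFs with low affinity, binds insulin as well, and is known from senescent cells. The signal of 201163_s_at was 3474, 3663 and 3642 in untreated cells, 11368, 7549.8 and 10072 with doxorubicin, 5777, 4581 and 4350.4 in DMSO and 5509, 5409 and 4791 with nutlin-3. Every doxorubicin array stood above all 9 other arrays, and the DMSO and nutlin-3 arrays overlapped. The log2 change was 1.40 (SE 0.13, adjusted p = 2.04e-07) with doxorubicin and 0.10 (SE 0.13, adjusted p = 0.67) with nutlin-3. Probe set 201162_at gave 2775, 2688 and 2031 in untreated cells, 6567, 6179 and 7919 with doxorubicin, 2812, 2374 and 2613 in DMSO and 3496, 2476 and 2663 with nutlin-3. Again the doxorubicin arrays alone stood apart, while the other 3 groups overlapped, and the log2 change was 1.46 (SE 0.14, adjusted p = 2.83e-07). The dim probe set 213910_at read 64.6, 50.03 and 62.98 in untreated cells, 141, 147 and 112 with doxorubicin, 60.1, 51.5 and 50.5 in DMSO and 43.6, 47.5 and 40.8 with nutlin-3. Here, too, the doxorubicin arrays were highest (0.99, SE 0.24, adjusted p = 0.00314). The nutlin-3 arrays lay under both control groups without a call (-0.22, SE 0.24, adjusted p = 0.613). Because 213910_at passed the filter with the help of its doxorubicin arrays, its rise is not separate support for the other 2 probe sets.

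The difference between the doxorubicin and the nutlin-3 response was itself called for each IGFBP7 probe set, of which 213910_at is again not separate support. It was 1.33 (SE 0.20, adjusted p = 9.86e-05) for 201162_at, 1.30 (SE 0.18, adjusted p = 6.29e-05) for 201163_s_at and 1.21 (SE 0.35, adjusted p = 0.0139) for 213910_at. At an unadjusted p under 0.05, too, 0 of the 3 passed with nutlin-3 in the limma fit. The 95% interval of the nutlin-3 change ran from -0.17 to 0.38 for 201163_s_at and from -0.16 to 0.43 for 201162_at. With array 1 alone for doxorubicin, the doxorubicin changes were 1.40, 1.66 and 1.07 for 201162_at, 201163_s_at and 213910_at. Set against DMSO in place of untreated cells, doxorubicin gave 1.40, 0.97 and 1.09 in the same order, all 3 called. Nutlin-3 against untreated cells was called for 201163_s_at (0.54, adjusted p = 0.00441) and not for 201162_at (0.20) or 213910_at (-0.32). In DMSO, 201163_s_at stood above untreated cells (0.44, SE 0.13, adjusted p = 0.0362), a call that was lost without any 1 of the 3 untreated arrays or without DMSO array 1 or 2 (adjusted p 0.0623 to 0.155), while 201162_at differed by 0.07 and was not called.

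IGFBP6, which encodes a binding protein with a preference for the second of the IGF ligands, rose with doxorubicin by 1.46-fold. Its only probe set, 203851_at, read 1988, 2270.3 and 1764 in untreated cells, 2658, 2746 and 3397 with doxorubicin, 1329.8, 1195 and 1133 in DMSO and 1611, 1210.4 and 1379 with nutlin-3. The doxorubicin arrays stood above all others, and the untreated arrays stood above both DMSO and nutlin-3, which overlapped. The change was 0.54 (SE 0.13, adjusted p = 0.00202) with doxorubicin and 0.19 (SE 0.13, adjusted p = 0.358) with nutlin-3, and the difference between them was not called (0.35, SE 0.18, adjusted p = 0.152). The call with doxorubicin was lost when arrays were centred on their medians (0.36, adjusted p = 0.0589) and with array 1 alone for doxorubicin (0.41, adjusted p = 0.0719). IGFBP6 was lower in DMSO than in untreated cells (-0.71, SE 0.13, adjusted p = 0.00176), so that against the other control doxorubicin gave 1.25 and nutlin-3 gave -0.52.

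IGFBP5 had its highest mean in untreated cells and its lowest means in the DMSO and nutlin-3 groups in 5 of its 6 probe sets, and doxorubicin lay between. IGFBP5 encodes the binding protein that holds IGFs in bone matrix. Its brightest probe set, 211959_at, read 3398, 4001 and 4152 in untreated cells, 2563, 1971 and 2254 with doxorubicin, 1621, 1469 and 1502 in DMSO and 1407, 1059 and 1002 with nutlin-3. The 4 groups did not overlap in this order. The change was -0.77 (SE 0.13, adjusted p = 0.000114) with doxorubicin and -0.41 (SE 0.13, adjusted p = 0.0326) with nutlin-3, and the difference between the responses was not called (-0.35, SE 0.18, adjusted p = 0.16). The fall with nutlin-3 was a call that 1 array could end, since it was lost without DMSO array 1, 2 or 3 or nutlin-3 array 2 or 3 (adjusted p 0.0608 to 0.154).

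The other 5 IGFBP5 probe sets did not all move alike. With doxorubicin, 203424_s_at fell from 794, 431 and 429 to 161, 177 and 137 (-1.65, SE 0.27, adjusted p = 9.9e-05). Probe set 211958_at fell from 416, 389.6 and 359.8 to 268, 178 and 210.0 (-0.80, SE 0.17, adjusted p = 0.000888). The groups did not overlap in either. Probe sets 1555997_s_at, 203426_s_at and 203425_s_at changed by -0.47, -0.38 and 0.02 and were not called, so 3 of the 6 fell. With nutlin-3 these 5 probe sets lay between -0.07 and 0.04, and none was called. The difference between the responses was called for 203424_s_at (-1.58, SE 0.38, adjusted p = 0.00502) and for 211958_at (-0.75, SE 0.24, adjusted p = 0.0248). The second of these was lost without untreated array 1, doxorubicin array 2 or DMSO array 2 (adjusted p 0.0557, 0.0571 and 0.0674), and with array 1 alone for doxorubicin, where it was -0.46 (adjusted p = 0.214).

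The direction of the IGFBP5 change with doxorubicin depended on the control. DMSO cells had less IGFBP5 than untreated cells in 5 of the 6 probe sets, with changes of -1.999, -1.60, -1.43, -1.40 and -1.32 on the log2 scale for 203424_s_at, 203426_s_at, 1555997_s_at, 211958_at and 211959_at (limma, adjusted p 1.5e-05 to 0.00285). In the sixth, 203425_s_at, the DMSO arrays also lay under the untreated arrays but the change of -0.49 was not called. Against DMSO, doxorubicin stood higher by 0.55 for 211959_at, 0.60 for 211958_at, 1.23 for 203426_s_at and 0.96 for 1555997_s_at, all called, and by 0.35 for 203424_s_at, which was not called. Against untreated cells, nutlin-3 gave -1.73 for 211959_at. DMSO and any other difference between the 2 arms cannot be told apart in these labels.

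**Figure D3:**
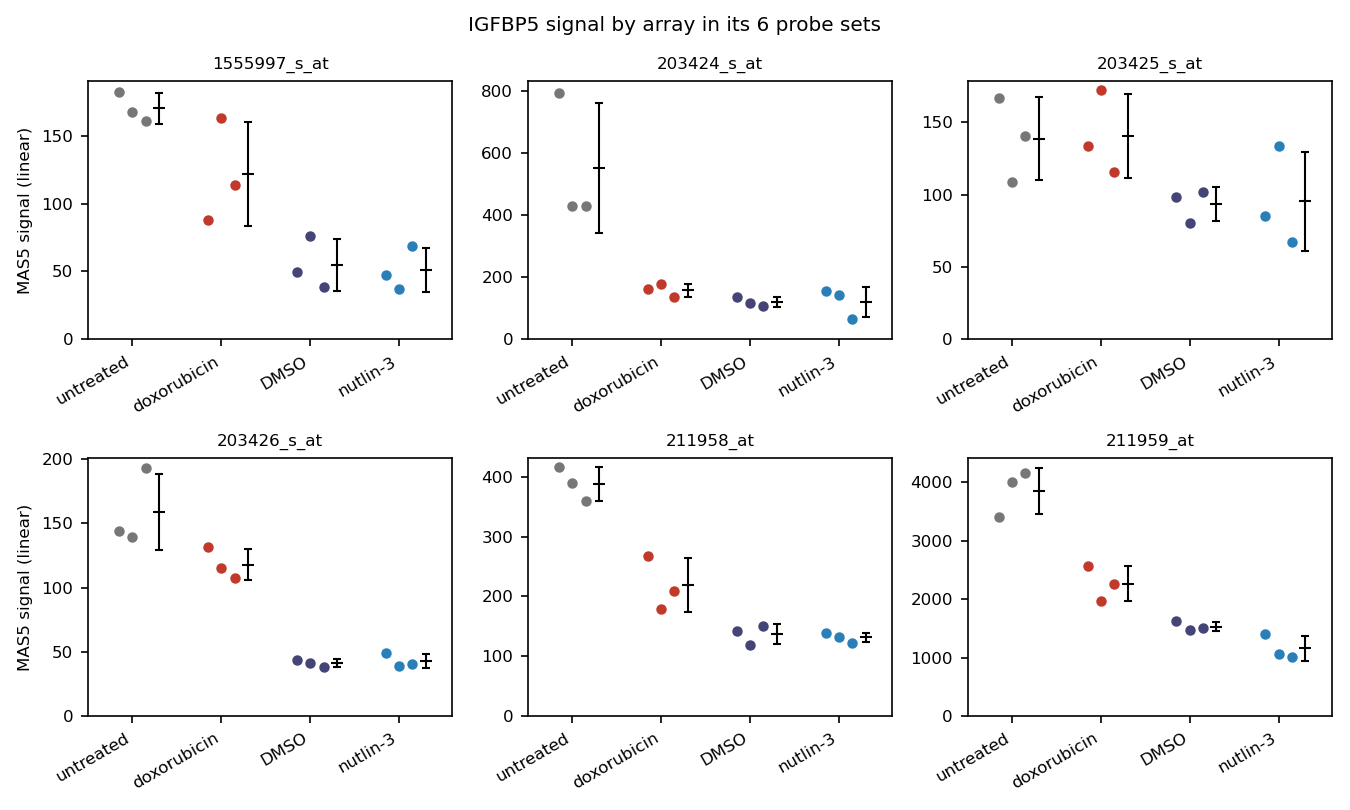
MAS5 signal (linear scale) of the 6 IGFBP5 probe sets on the 12 arrays, with 1 point per array and the mean ± SD of each group of 3 beside the points. Except in 203425_s_at, the untreated arrays have the highest group mean, and the DMSO and nutlin-3 arrays have the lowest.

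The other 4 binding protein genes lay near or under the filter, so their values are a description taken from a fit without the filter. IGFBP3, which encodes the main IGF carrier in serum, had a signal of 18.8, 27.4 and 35.7 in untreated cells, 42.3, 89.5 and 8.22 with doxorubicin, 5.88, 16.5 and 7.78 in DMSO and 13.8, 23.3 and 25.9 with nutlin-3 in 210095_s_at. The 3 doxorubicin arrays spread widely, and neither agent was called (0.31, SE 0.43, adjusted p = 0.653, and 0.51, SE 0.43, adjusted p = 0.619). The second IGFBP3 probe set, 212143_s_at, stayed between 3.503 and 13.9 on all 12 arrays. IGFBP4, which encodes a binding protein that inhibits IGF action, read 26.8, 22.01 and 11.3 in untreated cells, 40.6, 49.5 and 60.7 with doxorubicin, 59.6, 51.8 and 55.4 in DMSO and 91.97, 45.8 and 39.6 with nutlin-3, so that untreated cells were lowest. Its doxorubicin change was 0.89 (SE 0.32, adjusted p = 0.0498), just past the threshold without the filter.

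IGFBP1, whose product is made mainly by liver and decidua, had group means of 18.0 to 47.0 in 205302_at, and its second probe set, 237989_at, read 23.8, 11.2 and 32.9 in untreated cells and from 0.818 to 3.35 on all 9 other arrays. Without the filter that second probe set was lower with doxorubicin (-1.06, SE 0.24, adjusted p = 0.00287) and in DMSO (-1.07, SE 0.24, adjusted p = 0.0137) than in untreated cells. IGFBP2 read 5.52, 5.22 and 3.56 in untreated cells and 33.4, 9.31 and 11.97 with doxorubicin, which stood apart without a call (0.66, SE 0.26, adjusted p = 0.0762). In the RefSeq gene table (GRCh38.p14), IGFBP2 is the protein-coding gene next to IGFBP5 on chromosome 2, and IGFBP1 and IGFBP3 are neighbours on chromosome 7.

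IGF1R, the signalling receptor, rose with both agents in its brightest probe set. The signal of 203627_at was 3712, 2789 and 3013 in untreated cells, 5209, 4993 and 5321 with doxorubicin, 3952, 3253 and 3367 in DMSO and 5573, 5554 and 5196 with nutlin-3. Both treated groups stood above both control groups, and the treated groups overlapped each other. The change was 0.71 (SE 0.10, adjusted p = 2.58e-05) with doxorubicin, 1.64-fold, and 0.63 (SE 0.10, adjusted p = 0.000316) with nutlin-3, 1.55-fold. The difference between the responses was 0.08 with a 95% interval of -0.22 to 0.39 and was not called (adjusted p = 0.705).

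The other IGF1R probe sets were less uniform. With nutlin-3, 203628_at rose from 272, 212 and 199.6 to 409, 422 and 304 (0.69, SE 0.21, adjusted p = 0.0311), and 225330_at rose from 3141, 2530.4 and 2554 to 4339.5, 3461 and 3189.6 (0.41, SE 0.12, adjusted p = 0.0254). In both the groups did not overlap. Leaving out 1 array could end each call: 203628_at was lost without DMSO array 2 or 3 or nutlin-3 array 1 or 2 (adjusted p 0.0914 to 0.118), and 225330_at without DMSO array 2 or 3 or nutlin-3 array 1 (adjusted p 0.0997 to 0.122). The fourth tested probe set, 208441_at, gave -0.13 with nutlin-3 and was not called (adjusted p = 0.854). With doxorubicin, 203628_at, 225330_at and 208441_at changed by 0.43, 0.20 and 0.57 and were not called, although 203628_at was called without untreated array 1 (0.61, adjusted p = 0.0359) or doxorubicin array 3 (0.58, adjusted p = 0.0482). Probe set 203628_at was far lower in DMSO than in untreated cells, with means of 228 ± 38.8 and 673 ± 158 (SD, n = 3 each) and a change of -1.49 (SE 0.21, adjusted p = 0.000339), which the brightest probe set did not show (0.16, adjusted p = 0.35). Against untreated cells, nutlin-3 therefore gave -0.80 for 203628_at and 0.79 for 203627_at, and against DMSO doxorubicin gave 1.91 for 203628_at (adjusted p = 1.39e-06), so these probe sets disagreed in direction for nutlin-3 against untreated cells. The fifth probe set, 243358_at, ranged from 6.86 to 89.4 and was under the filter.

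IRS1, the adaptor that couples IGF1R and the insulin receptor to PI3-kinase, fell in 2 of its 3 probe sets with each agent, and the third had a mean under its control's as well. Its brightest probe set, 204686_at, read 2447, 3013 and 3167 in untreated cells, 2242, 1981 and 2246 with doxorubicin, 2546, 2594 and 2821 in DMSO and 1966, 2249 and 2219 with nutlin-3. The treated groups lay under their own controls without overlap and overlapped each other. The change was -0.41 (SE 0.10, adjusted p = 0.00389) with doxorubicin. With nutlin-3 it was -0.31 (SE 0.10, adjusted p = 0.0506), just short of the threshold, and it passed without untreated array 1 (adjusted p = 0.0252), untreated array 3 (adjusted p = 0.0462) or doxorubicin array 2 (adjusted p = 0.0441). Those arrays lie outside this comparison and left the change at -0.31, while leaving out a DMSO or nutlin-3 array never made it pass. The nutlin-3 change also passed in a limma fit of only the 6 DMSO and nutlin-3 arrays (adjusted p = 0.0267). So it did with quantile normalization (adjusted p = 0.0416) and with a filter at the 60th percentile (adjusted p = 0.0381). It did not pass with arrays centred on their medians or without an intensity trend. With array 1 alone for doxorubicin, the doxorubicin change was -0.35 and was not called (adjusted p = 0.074).

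Probe set 242979_at of IRS1 fell with both agents, from 337, 318 and 430.2 to 219.5, 191 and 265 with doxorubicin (-0.65, SE 0.15, adjusted p = 0.00206) and from 342, 359.9 and 375 to 264, 245 and 233 with nutlin-3 (-0.51, SE 0.15, adjusted p = 0.0259). The nutlin-3 call was lost without DMSO array 1, 2 or 3 or nutlin-3 array 2 or 3 (adjusted p 0.0518 to 0.0937). In 238933_at the nutlin-3 group read 555, 474 and 485, under the 894, 856 and 747 of DMSO (-0.70, SE 0.14, adjusted p = 0.00173). The same probe set was not called with doxorubicin (-0.29, SE 0.14, adjusted p = 0.0944), where doxorubicin array 2 at 1169 stood inside the untreated range of 1010 to 1261, and without that array it was called (-0.46, adjusted p = 0.00756), as it was with array 1 alone for doxorubicin (-0.49, adjusted p = 0.0283). Against DMSO doxorubicin gave 0.15 for this probe set and was not called. None of the 3 IRS1 probe sets and none of the 4 of IGF1R differed between the 2 responses, and none did at an unadjusted p under 0.05 in the limma fit. The interval of the difference ran from -0.41 to 0.21 for 204686_at, from -0.59 to 0.32 for 242979_at and from -0.01 to 0.83 for 238933_at.

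IGF2R, the receptor that binds and clears IGF ligand and sorts lysosomal enzymes, was not called with either agent in any of its 3 probe sets in the main fit. At an unadjusted p under 0.05 the limma fit gave 2 of 3 with doxorubicin and 0 of 3 with nutlin-3. The brightest, 201393_s_at, read 5174, 4884 and 5245 in untreated cells, 5642, 5297 and 6197 with doxorubicin, 5549, 4362 and 4705 in DMSO and 5872, 5151 and 4655 with nutlin-3. The 95% intervals of its change were -0.06 to 0.38 with doxorubicin and -0.12 to 0.32 with nutlin-3. Probe set 201392_s_at read 3962, 2529 and 3037 in untreated cells and 2145, 2989 and 2342 with doxorubicin, which overlapped (-0.34, SE 0.15, adjusted p = 0.0809), and it was called without untreated array 2 (-0.49, adjusted p = 0.0184) or doxorubicin array 2 (-0.48, adjusted p = 0.0214), and with array 1 alone for doxorubicin (-0.54, adjusted p = 0.0496). Its difference between the responses, -0.55 (SE 0.22, adjusted p = 0.0674), was likewise called without untreated array 2 (adjusted p = 0.0206), doxorubicin array 2 (adjusted p = 0.0221) or nutlin-3 array 3 (adjusted p = 0.0488). Probe set 1569052_at changed by -0.58 with doxorubicin (adjusted p = 0.0614), by -0.83 without doxorubicin array 3 (adjusted p = 0.0107) and by -0.36 without doxorubicin array 1, and with array 1 alone for doxorubicin it was -1.03 (adjusted p = 0.0112). In DMSO, 201392_s_at was lower than in untreated cells (-0.93, SE 0.15, adjusted p = 0.000946), and its doxorubicin change turned to 0.60 against DMSO. The missing doxorubicin calls also depended on the scaling. Centring arrays on their medians gave a call for 201392_s_at (-0.52, adjusted p = 0.00692) and for 1569052_at (-0.76, adjusted p = 0.0219). Quantile normalization (-0.79, adjusted p = 0.0211) and a fit without an intensity trend (adjusted p = 0.0373) also gave a call for 1569052_at.

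The control groups differed from each other in 10 of the 20 probe sets, 9 lower and 1 higher in DMSO than in untreated cells, beside 13.6% of all probe sets called (7.94% lower and 5.65% higher). A call with at least a 2-fold change was met by 6 of the 20, 5 of IGFBP5 and 1 of IGF1R, beside 2.19% of all probe sets. The median change was -0.28 for the 20 probe sets and -0.02 over all probe sets tested. Besides the probe sets of IGFBP5, IGFBP6, IGF1R and IGF2R already given, IRS1 238933_at was lower in DMSO (-0.44, SE 0.14, adjusted p = 0.045), a call lost without untreated array 1 or 3, any of the 3 DMSO arrays, or nutlin-3 array 2 or 3 (adjusted p 0.0552 to 0.174). The doxorubicin and nutlin-3 responses differed in 5 of the 20 probe sets, 3 of IGFBP7 and 2 of IGFBP5, beside 30.4% of all probe sets (15.5% with the doxorubicin response higher and 14.9% lower). When arrays were centred on their medians, the median of all probe sets moved from 0.04 to -0.14 with doxorubicin and from -0.02 to 0.11 in DMSO, while 34.1% in place of 50.1% of the doxorubicin calls, and 64.2% in place of 41.5% of the DMSO calls, were higher. The members then gave 4 higher and 8 lower with doxorubicin and 1 higher and 8 lower in DMSO, and changes are to be read relative to these medians. The share of all probe sets called under this centring was not recorded, so whether these counts are particular to the members cannot be told.

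Some genes ran close to a member across the 12 arrays, by Pearson's r of log2(signal + 16) between brightest probe sets over 4 groups of 3 arrays, given as a description because the arrays share their treatments. ITGB8, an integrin subunit, followed IGFBP5 (r = 0.972), with mean signals of 4581, 2548, 2217 and 1750 in untreated, doxorubicin, DMSO and nutlin-3 cells, and SLC2A12, a glucose transporter, was next (r = 0.968). IGFBP6 was followed by SMOC1, a matrix protein (r = 0.976), and by ECE1 (r = 0.97). IGFBP7 ran with AKAP17A (r = 0.979) and SLC66A3 (r = 0.978). IGF1R ran with CD163L1 (r = 0.987), whose means were 92.3, 257, 120 and 273 in the same order, and with NICN1 (r = 0.973). IRS1 ran with EML4 and RBM23 (r = 0.94 each), and IGF2R with GLB1L (r = 0.891) and LOC100288570 (r = 0.87).

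The wider axis was read from 7 lists of 94 other genes, of which 82 had a probe set paired with 1 gene and 72 passed the filter, each gene by its brightest probe set. With doxorubicin 22 rose and 18 fell, beside 54.2% of all genes called (29.3% higher and 24.9% lower), with a median of 0.03 beside 0.08 over all genes. With nutlin-3 8 rose and 11 fell, beside 23.6% of all genes (11.1% higher and 12.5% lower), with a median of -0.05 beside 0.005. These shares lay near the background in both comparisons. The 2 responses differed for 14 genes upwards and 15 downwards, beside 36.9% of all genes (20.3% higher and 16.6% lower), and DMSO stood higher than untreated cells for 7 and lower for 8, beside 13.3% (7.47% higher and 5.82% lower).

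**Figure D4:**
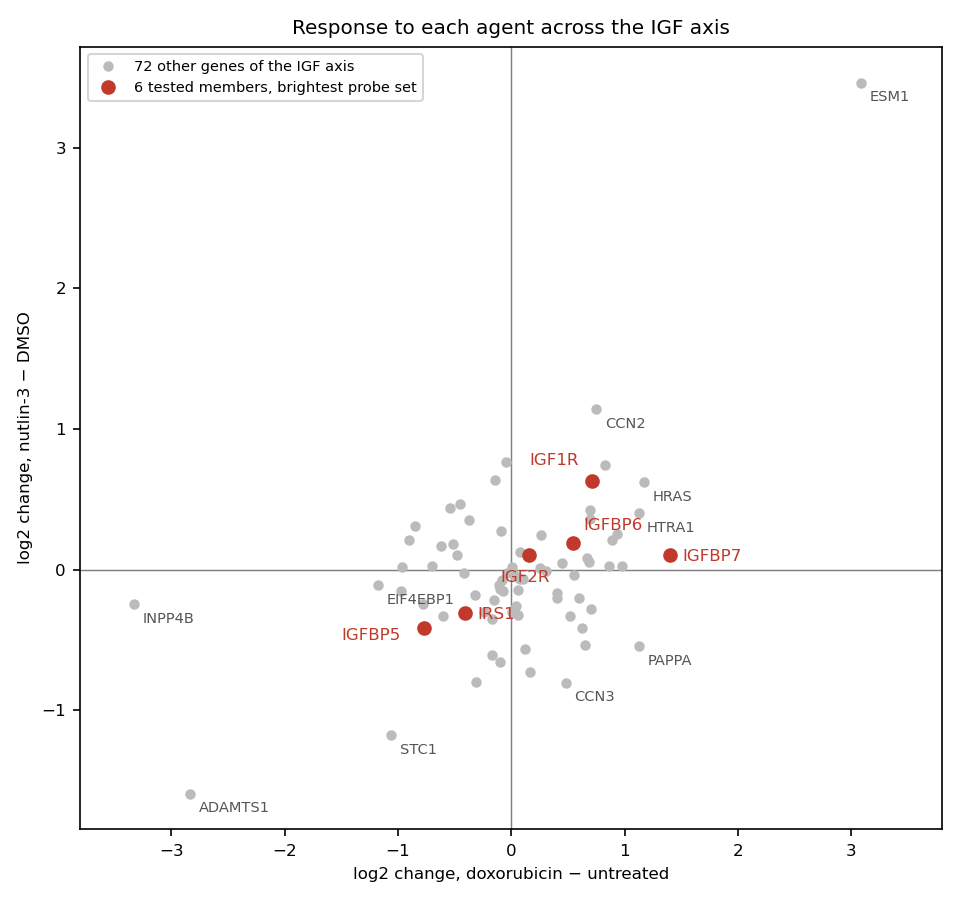
Log2 change with doxorubicin (horizontal axis) against log2 change with nutlin-3 (vertical axis) for 72 other genes of the axis (grey) and the 6 tested members (red), each by its brightest probe set, with the outlying genes named. ESM1 lies at the upper right, ADAMTS1 and STC1 at the lower left, and INPP4B at the far left; IGFBP7 lies to the right of 0 near the horizontal line.

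Among the other ligands and receptors, 2 of 5 measured genes passed the filter. IGF1, the ligand, read near the filter and was not called with doxorubicin (-0.54, adjusted p = 0.297) or nutlin-3 (0.44, adjusted p = 0.544). It was lower in DMSO than in untreated cells (-1.34, adjusted p = 0.0405). That probe set, with a mean signal of 54.7, passed the filter with the help of its untreated arrays (mean 90.4, and 26.7 in DMSO). The call in DMSO is therefore weak support for a difference. The dimmer IGF1 probe sets lay under the filter and were not tested. INSR, the insulin receptor, was not called with doxorubicin (-0.10, adjusted p = 0.688), fell with nutlin-3 (-0.66, adjusted p = 0.02) and was lower in DMSO (-0.66, adjusted p = 0.0266). The difference between the 2 responses was not called for IGF1 (-0.98, adjusted p = 0.223) or for the brightest INSR probe set (0.56, adjusted p = 0.122). Among the other 3 tested INSR probe sets, 1 fell with nutlin-3 (-0.98, adjusted p = 0.00248) with a called difference (1.23, adjusted p = 0.00405), and none of the 3 was called in DMSO, where they gave 0.17, 0.11 and -0.68. IRS2, the other main adaptor, lay under the filter.

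Proteases that cut binding proteins, with their inhibitors, gave 5 rises and 4 falls with doxorubicin among 12 tested, and 3 of the 12 fell with nutlin-3. Over all genes, 29.3% rose and 24.9% fell with doxorubicin, and 12.5% fell with nutlin-3. No list was tested against these shares. PAPPA, which encodes the protease PAPP-A that cuts IGFBP4 and IGFBP5, rose with doxorubicin by 1.13 and fell with nutlin-3 by 0.54 on the log2 scale, and the difference of 1.67 was called (limma, adjusted p = 2.53e-06). All 8 PAPPA probe sets that passed the filter rose with doxorubicin, by 0.97 to 2.42. The brightest was the 1 of the 8 called with nutlin-3. The probe set that rose by 2.42 had mean signals of 17.7, 159, 13.2 and 35.0 in untreated, doxorubicin, DMSO and nutlin-3 cells. Another, which rose by 1.31, had 63.4, 181, 23.1 and 37.9 in the same order. Both passed the filter with the help of their doxorubicin arrays and are not separate support. PAPPA probe sets under the filter were not tested. STC1, a stanniocalcin that inhibits PAPP-A, fell with both (-1.06 and -1.18). Of its 3 tested probe sets, 2 fell with doxorubicin and 3 with nutlin-3. ADAMTS1, a matrix metalloprotease, fell with both (-2.83 and -1.59), the deepest falls of this list with each agent. HTRA1, a secreted serine protease with an IGFBP domain of its own, rose with doxorubicin by 1.12 (adjusted p = 5.33e-06) and was not called with nutlin-3 (0.40, adjusted p = 0.059).

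Other proteins with an IGFBP domain gave 7 rises and 1 fall with doxorubicin and 4 rises and 2 falls with nutlin-3 among 10 tested. Beside them stand 29.3% higher and 24.9% lower of all genes with doxorubicin, and 11.1% and 12.5% with nutlin-3. Whether this small list departs from those shares was not tested. ESM1, an endothelial proteoglycan, rose the furthest of the list with both agents, by 3.09 and 3.46 (limma, adjusted p = 1.02e-07 and 1.39e-07). Its mean signals were 56.2, 598, 39.1 and 560 in untreated, doxorubicin, DMSO and nutlin-3 cells. Both control means thus lay near or under the filter, which ESM1 passed with the help of its treated arrays. CCN2, the connective tissue growth factor, rose with both (0.75 and 1.14). In its brightest probe set, CCN3 rose with doxorubicin by 0.48 and fell with nutlin-3 by 0.80 on the log2 scale. CRIM1 did the reverse (-0.46 and 0.47), and both had a called difference (1.28 and -0.92). The dimmer CCN3 probe set was not called with doxorubicin (0.28) and fell with nutlin-3 (-0.94). The dimmer CRIM1 probe sets were not called with doxorubicin (-0.32 and -0.21), and with nutlin-3 they gave 0.47, called, and 0.35, not called. IGFBPL1, a relative of the binding proteins, rose with doxorubicin (0.62) and fell with nutlin-3 (-0.41), with a called difference of 1.04. Of the RNA-binding family that includes IGF2BP2, 2 of 3 genes were tested, and IGF2BP2 fell with doxorubicin (-0.85, adjusted p = 8.52e-06). The dimmer IGF2BP2 probe set gave -0.12 with doxorubicin and was not called.

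Adaptors and brakes at the receptor gave 3 rises and 3 falls with doxorubicin and 2 rises and 3 falls with nutlin-3 among 16 tested. The shares of all genes called were 54.2% with doxorubicin and 23.6% with nutlin-3. With doxorubicin SOS2, an exchange factor for RAS, rose by 0.97, PTPN1, a phosphatase of the insulin and IGF receptors, rose by 0.69, and NEDD4, a ubiquitin ligase of IGF1R, fell by 0.97 on the log2 scale, as did GIGYF2, a partner of the adaptor GRB10, by 0.70. With nutlin-3 SHC1, an adaptor to the RAS arm, rose by 0.77, PTPN1 rose by 0.36, and SOCS1 and SOCS3, inhibitors of cytokine and insulin signalling, fell by 0.80 and 0.73 on the log2 scale. The dimmer probe sets of SOCS1 and SOCS3 that passed the filter were not called with nutlin-3 (0.08 for SOCS1, -0.54 and 0.05 for SOCS3).

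The PI3-kinase, AKT and FOXO arm gave 7 rises and 7 falls with doxorubicin and 1 rise and 2 falls with nutlin-3 among 25 tested. Here, too, 54.2% of all genes were called with doxorubicin and 23.6% with nutlin-3. PIK3CD, a catalytic subunit, rose with both agents (0.83 and 0.75), while its dimmer probe set was called with neither (0.53 and 0.21). PIK3R3, a regulatory subunit, rose with doxorubicin (0.94), and PIK3R1, another, rose with doxorubicin by 0.52 and fell with nutlin-3 by 0.33 on the log2 scale, while the next PIK3R1 probe set gave 0.36 with nutlin-3 and was not called. INPP4B, a lipid phosphatase of the pathway, fell with doxorubicin (-3.33, limma, adjusted p = 2.69e-11), from a mean signal of 1785 ± 64.6 to 167 ± 39.3 (SD, n = 3 each), and was not called with nutlin-3 (-0.25, adjusted p = 0.272). Its second tested probe set fell with both agents (-2.61 and -0.51, the latter at an adjusted p of 0.0199). EIF4EBP1, a brake on translation, fell with doxorubicin (-1.17), and PHLPP2, an AKT phosphatase, fell with nutlin-3 (-0.35). The dimmer PHLPP2 probe set gave -0.07 with nutlin-3 and was not called. Of 6 tested genes of the RAS and ERK arm, HRAS rose with both agents (1.17 and 0.62), and ARAF (-0.32) and MAP2K2 (-0.62) fell with doxorubicin.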

How the data were processed

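Transcript levels had been measured in U2OS cells on 12 Affymetrix Human Genome U133 Plus 2.0 arrays, 3 in each of 4 groups taken from the array titles. The deposited table holds linear intensity values, which the authors made with MAS5, per the submitters' processing notes. The version and settings are not given in the sources used here. The mean after trimming 2% of values at each end was 500.06 to 500.07 on all arrays, array medians were 79.6 to 113.6, and 0 pairs of arrays held identical values. The number of arrays limits the precision, and no detection calls were used.

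Values were turned into log2(signal + 16) with the authors' scaling kept. Of 54675 probe sets, 62 controls and those with a mean under the 40th percentile (54.6) were left out. The 32768 others were fitted with limma 3.58.1 in R 4.3.3 (lmFit, eBayes with an intensity trend, 4 group means, no block), with Benjamini-Hochberg adjustment. Probe sets under the filter were read from the same fit without it. The fit was tested on simulated data. The contrasts were each agent against its control, the difference of the agents' changes, and DMSO versus untreated. RNA quality used an exact permutation test over arrays.

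The 10 members and the lists were chosen with earlier results of these data known. All members are named; of each list, up to 2 called genes with the largest rise and 2 with the largest fall per agent, with IGF1, INSR and IRS2 in each comparison. For each member, 2 genes with the highest Pearson r are named. Alternatives covered the scaling, pseudocount, filter, trend, thresholds, control, replicate block and each array left out. Some listed genes are not analysed here.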

Additional observations from a re-analysis of the deposited data

Results flagged for a closer look

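For 5 probe sets the difference between the doxorubicin response and the nutlin-3 response passed the test of that difference in the limma fit. The 3 of IGFBP7 had a higher response to doxorubicin, by 1.33 for 201162_at, 1.3 for 201163_s_at and 1.21 for 213910_at on the log2 scale. Of these, 213910_at passed the filter with the help of its doxorubicin arrays and is not separate support. The 2 of IGFBP5 had a lower one, by -1.58 for 203424_s_at and by -0.75 for 211958_at. Each was measured against its own control group, and for IGFBP5 these controls differ (changes of -1.999 and -1.40 in DMSO against untreated cells for 203424_s_at and 211958_at).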

How the results depend on the processing

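Over 27 alternative settings, 2020 values of single probe sets were recomputed. Of these, 77 lost their call with the same sign, 38 gained one with the same sign, and 10 changed sign with a call on at least one side. The 10 came from setting an agent against the other control. Another 63 values, called neither in the setting reported nor in the alternative, also changed sign (62 of them with settings other than the control), and the remaining 1832 kept their sign and their side of the threshold. Many of the 1832 could not change sign, since another filter or threshold, or leaving out an uninvolved array, returns the same estimate. Doxorubicin against DMSO gave 0.96, 0.35, 1.23, 0.60 and 0.55 for IGFBP5 1555997_s_at, 203424_s_at, 203426_s_at, 211958_at and 211959_at, and 0.60 for IGF2R 201392_s_at. Nutlin-3 against untreated cells gave -0.73 for IGF2R 201392_s_at, -1.56 for IGFBP5 203426_s_at, -0.80 for IGF1R 203628_at and -0.52 for IGFBP6, and 14 of the 20 probe sets were then called, 3 higher and 11 lower, against 13 for doxorubicin against DMSO, 11 higher and 2 lower. By construction these use another control group, and no share over all probe sets was recorded beside them.

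With 1 probe set per gene, which leaves 6 of the members' probe sets, 5 were called with doxorubicin, 3 with nutlin-3, 1 for the difference and 3 for DMSO. In the fit of all tested probe sets, the shares of all genes called by their brightest probe set were 54.2%, 23.6%, 36.9% and 13.3% in the same order. At an adjusted p under 0.01, 2 of the 20 were called with nutlin-3 and 3 for the difference, and no share over all probe sets was recorded at this threshold. With a change of at least 2-fold as well, the counts were 3 with doxorubicin, 0 with nutlin-3 in the limma fit (7 passed an unadjusted p under 0.05, all with changes under 2-fold) and 6 for DMSO. Without an intensity trend, 3 were called with nutlin-3, and the cause was not tested. Leaving out 1 array at a time gave 10 to 12 calls with doxorubicin, 2 to 7 with nutlin-3, 4 to 6 for the difference and 8 to 10 for DMSO. Whether the replicate numbers pair the arrays was not settled. The deviations of same-numbered arrays correlated at -0.067 to 0.199 over 18 pairs, 6 of them over 0.1. The highest, 0.128, 0.184 and 0.199, were between the arrays numbered 1 of the untreated, DMSO and nutlin-3 groups. By mean correlation with the arrays of each number in the other groups, 6 of 12 arrays were closest to their own number. With a replicate block the counts were 10 with doxorubicin, 7 with nutlin-3, 5 for the difference and 10 for DMSO, and the added nutlin-3 call was IRS1 204686_at (adjusted p = 0.0274). The fit with array 1 alone for doxorubicin was chosen after seeing the data. No share over all probe sets was recorded for the fits without a trend, with 1 array left out or with a replicate block. Signals near the filter limit IGFBP1 to IGFBP4, whose changes could not be measured well.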
